A study of Mus musculus with 8 samples.

Results

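A set of 8 genes for lipid-carrying proteins of plasma and brain was followed in mouse liver and hypothalamus: the apolipoproteins Apoa1, Apoa2, Apoa4, Apob, Apoc3, Apoe and Apom, and Apod, which bears the name but belongs to the lipocalin fold. The genes were listed by symbol, and the brightest probe annotated to that symbol alone was taken for each. This left 7 of the 8 genes with 1 probe each, out of 33012 probes on the array, of which 14411 carry a single symbol. Apob had no such probe and was not analysed here. The samples were 8 RNA pools, 1 for each combination of tissue, strain and diet, and each pool held tissue of 6 male mice. The strains were C57BL/6J, called B6, and the homozygous congenic line B6.CAST-17, whose name denotes a chromosome 17 segment of CAST origin in B6 mice. The diets were chow (LabDiet #5001) and a choice, lasting 24 h, between a food of 78% carbohydrate with 22% protein and a food of 78% fat with 22% protein, called 2-choice. The pooled animals were the most divergent in nutrient intake among 20 to 25 mice of each strain tested for 10 days, and had spent 6 weeks back on chow. Because the animals were pooled and 1 congenic line was used, the spread between single mice and between lines is not in these data.

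Apolipoproteins coat lipoprotein particles, keep their lipids in solution and steer them to enzymes and receptors. Liver secretes most of the plasma apolipoproteins: Apoa1 and Apoa2 are the main proteins of high-density lipoprotein (HDL), Apoc3 slows the clearance of triglyceride-rich particles, and Apoa4, made in intestine and liver, is associated with fat transport and satiety. Apoe is the ligand by which receptors of the low-density lipoprotein (LDL) receptor family take up particles, and in brain it comes mainly from astrocytes. Apod and Apom are lipocalins, small proteins with a lipid-binding pocket: Apod is made in brain glia and peripheral connective tissue, and Apom rides on HDL as the carrier of sphingosine 1-phosphate.

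The 250 bases before the start of 4 genes are shown because the liver results below turn on Apom, Apod and Apoa4, while Apoa1 is the close chromosomal neighbour of Apoa4. The sequences are from RefSeq on GRCm38.p6, written 5′ to 3′ on the strand of each gene, in lower case with matches to the searched motifs in capitals. They belong to the reference mouse and not to the congenic line.
Apom (chr17:35131802-35132051, minus strand): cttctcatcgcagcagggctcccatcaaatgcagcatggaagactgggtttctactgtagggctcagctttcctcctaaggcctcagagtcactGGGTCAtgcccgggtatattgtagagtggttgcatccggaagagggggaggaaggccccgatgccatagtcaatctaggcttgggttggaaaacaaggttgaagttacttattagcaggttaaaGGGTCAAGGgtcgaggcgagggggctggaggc
Apod (chr16:31314809-31315058, minus strand): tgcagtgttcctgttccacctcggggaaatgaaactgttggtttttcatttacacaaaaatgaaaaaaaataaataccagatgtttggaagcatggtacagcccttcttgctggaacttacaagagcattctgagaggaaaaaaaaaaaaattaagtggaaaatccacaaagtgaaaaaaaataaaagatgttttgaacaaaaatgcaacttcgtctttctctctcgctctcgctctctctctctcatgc
Apoa4 (chr9:46240594-46240843, plus strand): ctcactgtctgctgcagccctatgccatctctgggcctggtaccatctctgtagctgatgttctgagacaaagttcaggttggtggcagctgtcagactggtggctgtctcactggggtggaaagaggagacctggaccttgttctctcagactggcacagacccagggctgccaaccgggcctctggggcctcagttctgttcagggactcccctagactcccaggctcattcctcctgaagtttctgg
Apoa1 (chr9:46228380-46228629, plus strand): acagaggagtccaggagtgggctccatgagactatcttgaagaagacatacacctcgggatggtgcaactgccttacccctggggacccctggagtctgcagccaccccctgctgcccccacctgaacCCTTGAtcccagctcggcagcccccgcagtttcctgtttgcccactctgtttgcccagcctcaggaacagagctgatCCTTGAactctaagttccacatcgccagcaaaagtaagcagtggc
The motifs searched on both strands were AGGTCA and GGGTCA, short elements bound by nuclear receptors, TCAAGG, the core of the element bound by Nr5a2, GTTAAT, an element bound by Hnf1 factors, and TGACGTCA, the cAMP response element. Of 32851 promoter windows of the same length, 14% held AGGTCA, 11.6% GGGTCA, 12.5% TCAAGG, 6.43% GTTAAT and 1.55% TGACGTCA. The Apom window held GGGTCA at 156 to 151 and again at 32 to 27 bases before the start, and TCAAGG at 29 to 24 bases, where it overlaps the nearer GGGTCA. The Apoa1 window held TCAAGG on the opposite strand at 122 to 117 and at 45 to 40 bases. No searched motif occurred in the Apod and Apoa4 windows. Of the 8 genes, 7 were in the promoter table, and among the remaining 3 of these only Apoe held a match, GGGTCA at 28 to 23 bases before its start.

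Values are log2 intensities after quantile normalization within each tissue, and each array stands for 1 pool. The deposited table gave both strains of a tissue and diet the same set of sorted intensities, so strains were compared inside 1 scaling set. Diets were compared across such sets, and an effect of diet and one of scaling cannot be told apart. The median deposited intensity was 560 on both hypothalamus chow arrays and 1338 on both hypothalamus 2-choice arrays, and 700.0 to 701.8 on the 4 liver arrays. The array titles, used here for the groups, do not match all free-text descriptions: that of the hypothalamus congenic chow pool names C57BL/6J, that of the liver B6 2-choice pool names the congenic line, all liver descriptions name hypothalamus, and those of both liver chow pools name the 2-choice diet. The 2-choice tissues were taken 4 h before lights out, and the collection time of the chow tissues was not established here, so diet and time of day cannot be told apart. The tissue labels fit the markers, with Alb, the hepatocyte protein albumin, at 20.07 to 21.40 in liver and 8.75 to 11.42 in hypothalamus, and Hcrt, the hypothalamic peptide hypocretin, at 14.48 to 15.98 in hypothalamus and 8.22 to 8.89 in liver. A probe was tested in a tissue when its mean reached the 40th percentile, 9.04 in liver and 9.26 in hypothalamus. All 7 probes passed in liver, Apod through its congenic pools alone. In hypothalamus 6 passed, Apoa1 through its congenic 2-choice pool alone, and Apom lay below.

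The tissue comparison asked where each gene is expressed. Apoa1, Apoa2, Apoc3, Apom and Apoa4 were higher in liver, Apod was higher in hypothalamus, and Apoe was high in both tissues. For this comparison values were quantile normalized over all 8 arrays, and the 4 combinations of strain and diet were blocks in limma. By limma, 49.1% of 19807 probes differed at an adjusted p under 0.05, 24.1% higher and 25% lower in liver. Of the 7 genes, 5 were higher and 1 was lower in liver, with a median log2 difference of 6.20 against 0.04 over all probes tested.

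The HDL proteins and Apoc3 were near the upper end of the scale in liver. Apoa1 ranged from 18.95 to 19.18 in liver and from 8.79 to 10.95 in hypothalamus, a log2 difference of 9.57 ± 0.30 (SE; limma adjusted p = 2.72e-09). Apoa2 ranged from 20.12 to 21.13 in liver and from 10.44 to 11.73 in hypothalamus, a difference of 9.70 ± 0.20 (limma adjusted p = 3.25e-10). Apoc3 ranged from 19.18 to 19.49 in liver and from 9.71 to 10.58 in hypothalamus, a difference of 9.28 ± 0.21 (limma adjusted p = 4.25e-10). In all 3 the lowest liver pool lay far above the highest hypothalamus pool. The fitted mean differences amount to 758-fold for Apoa1, 834-fold for Apoa2 and 620-fold for Apoc3. Apom ranged from 14.31 to 16.20 in liver and from 8.53 to 9.68 in hypothalamus, a difference of 6.20 ± 0.42 (73.4-fold; limma adjusted p = 6.62e-07). For Apoa1 and Apom the hypothalamus values lay around the filter level of 9.24 for this comparison, so the size of these folds rests on signal close to the dim end of the array.

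Apoa4 had the smallest of these liver differences. It ranged from 13.99 to 15.37 in liver and from 11.56 to 11.86 in hypothalamus, a difference of 2.92 ± 0.31 (7.58-fold; limma adjusted p = 1.88e-05). Its hypothalamus values lay well above the filter level. Apod ran the other way, from 14.50 to 16.07 in hypothalamus and from 7.73 to 11.12 in liver, a difference of -6.08 ± 0.49 (67.6-fold; limma adjusted p = 2.29e-06). Its liver values spread more than those of any other member here, and the B6 liver pools lay below the filter level.

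Apoe was the member whose tissue difference depended on scaling. It ranged from 21.06 to 21.45 in liver and from 20.39 to 21.13 in hypothalamus, and these ranges overlap. Apoe held rank 1 or 3 on the liver arrays and ranks 2 to 12 on the hypothalamus arrays. Normalization over all 8 arrays gives equal ranks equal values, so the overlap and the size of the difference are bounded by these top ranks. The liver minus hypothalamus difference was 0.49 ± 0.24 and did not pass (limma adjusted p = 0.118). With arrays centred on the median it was 1.86 (adjusted p = 3.52e-06), with quantile normalization within each tissue 1.35 (adjusted p = 0.0012), and without both hypothalamus chow arrays it was -0.04 (adjusted p = 0.949), an alternative chosen after seeing the data.

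**Figure D1:**
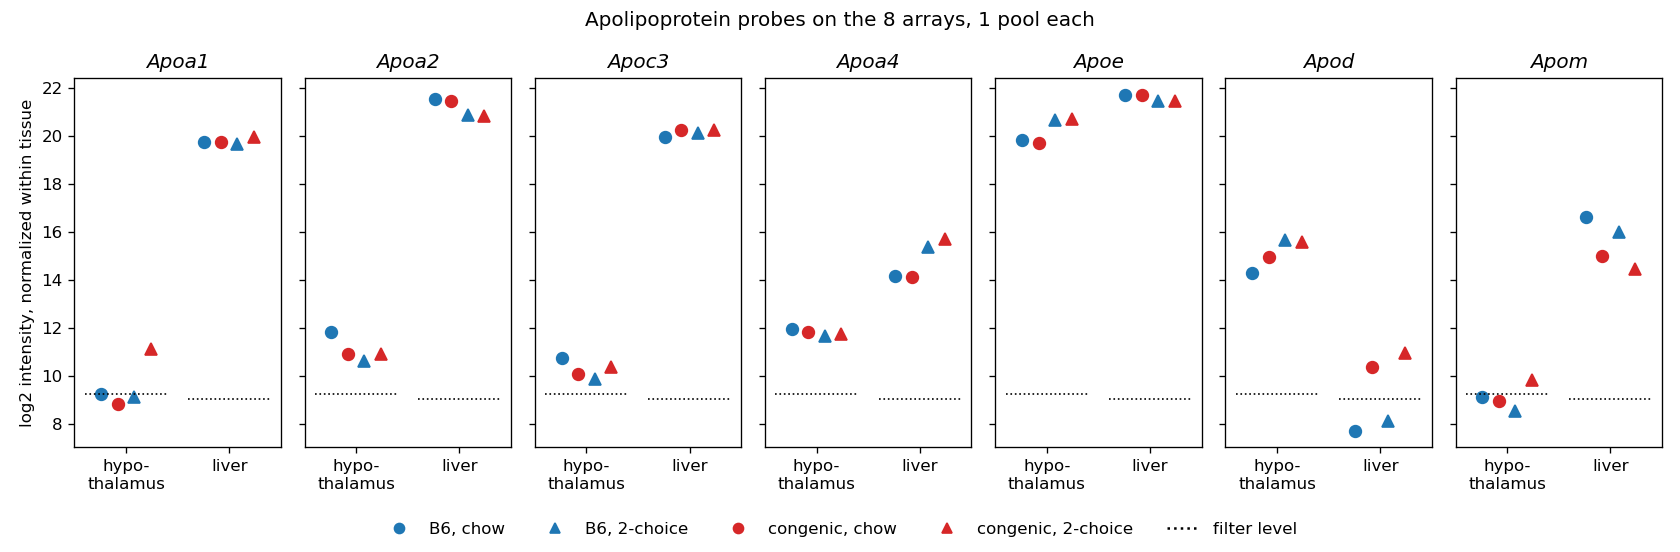
Log2 intensity, normalized within tissue (vertical axis), of the 7 probes in hypothalamus and liver, 1 panel for each gene. Each point is 1 pool, blue for B6 and red for congenic, circles for chow and triangles for 2-choice, and dotted lines mark the filter level of the tissue. Liver Apod splits by strain, with B6 at 7.73 and 8.13 and congenic at 10.36 and 10.96, and Apom splits the opposite way.

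The other genes of lipoprotein biology were read from lists of genes. Of 12 tested other apolipoproteins, 10 were higher in liver and none was lower, with Apoc4 at 10.43 ± 0.24, Apoh at 9.95 ± 0.27 and Apof at 9.95 ± 0.21 among them. Of 13 genes of lipoprotein assembly and lipid transfer, 9 were higher and 2 lower in liver. Of 20 transcription factors of apolipoprotein genes, 15 were higher and 1, Nr2f1, was lower in liver, at -3.69 ± 0.41. Lipoprotein receptors were divided, with 5 of 10 higher in liver and 3 lower, including the brain sorting receptor Sorl1 at -6.47 ± 0.39. In the lipocalin family 5 of 7 were higher in liver, led by Ambp at 10.61 ± 0.24, and 1 was lower, the brain prostaglandin synthase Ptgds at -7.63 ± 0.19. The neuronal cholesterol hydroxylase Cyp46a1 was lower in liver, at -4.74 ± 0.30. Each of these named differences had a limma adjusted p of 2.62e-05 or less.

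The strain comparison in liver asked which of these genes differ between congenic and B6 mice. Apod was higher and Apom lower in the congenic pools under both diets, and no other member reached a 1.5-fold difference. In the limma fit of all 8 arrays 0% of 19807 probes passed, with a lowest adjusted p of 0.217 and 1318 probes at an unadjusted p under 0.05. A mean difference of 1.5-fold or more, alike in sign under both diets, was seen for 22.5% of all probes, 9.16% higher and 13.3% lower, and for 2 of the 7 members, 1 each way. The members' median log2 difference was 0.14 against 0.01 over all probes tested.

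Apod, the lipocalin of glia and connective tissue, had liver values of 7.73 in B6 chow, 10.36 in congenic chow, 8.13 in B6 2-choice and 10.96 in congenic 2-choice. Both congenic pools were above both B6 pools, and the B6 pools lay below the filter level of 9.04. In deposited intensity the B6 pools read 221 and 270.2 and the congenic pools 1296 and 2030. On their own arrays the B6 values stood at the 2.31 and 9.19 percentile of all probes, and the congenic values at 63.5 and 69.6. The congenic minus B6 difference was 2.63 under chow and 2.83 under 2-choice, with a mean of 2.73 ± 0.33 (6.64-fold). It did not pass (limma adjusted p = 0.217, and 0.147 with no filter on dim probes). The probe was tested in liver because its congenic pools are high, so no p of Apod in liver counts as support for the difference, and its size rests on B6 signal at the dim end of the array.

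The adjusted p of Apod moved with the arrays that were fitted. In the fit of the 4 liver arrays alone, whose error has 1 residual degree of freedom, 1.27% of probes passed, 0.237% higher and 1.03% lower, and Apod had an adjusted p of 0.0631 (2.73 ± 0.68). Leaving out any 1 of the 4 hypothalamus arrays from the 8-array fit kept the difference at 2.73 and lowered the adjusted p. That does not count as support, because the congenic pools carried the probe over the filter. The residual error then comes from the liver arrays, as in the fit of these alone. Why the adjusted p differs between these fits was not tested. Leaving out 1 liver array gave 2.63 or 2.83 with an adjusted p of 0.109 to 0.23, and without the liver B6 2-choice pool, whose description names the congenic line, it was 2.63 (adjusted p = 0.15).

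Lists of markers of other cell types were checked in the same pools. The oligodendrocyte list had a summed liver level of 12.26 in B6 chow, 12.34 in congenic chow, 12.25 in B6 2-choice and 12.33 in congenic 2-choice, with 2 of 6 markers higher in both pairs, 2 lower and a median difference of 0.01. Its defining marker Mbp read 8.80, 10.12, 8.10 and 8.53 in the same order. The fibroblast and meninges list summed to 18.15 to 18.40, with 1 of 8 higher in both pairs and 3 lower. The hypothalamic neuron list summed to 12.91 to 13.54, with 1 of 10 higher in both pairs and 3 lower. Their part in the Apod difference was not tested. These marker counts use sign alone, and the share of all probes alike in sign was not counted. In these pools a change in the number of cells and a change in RNA per cell cannot be told apart.

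Apom, the sphingosine 1-phosphate carrier of HDL, had liver values of 16.62 in B6 chow, 15.02 in congenic chow, 16.02 in B6 2-choice and 14.48 in congenic 2-choice. The strains did not overlap, and all 4 values were far above the filter level. The difference was -1.60 under chow and -1.54 under 2-choice, with a mean of -1.57 ± 0.38, or 2.97-fold lower in congenic pools. In the 8-array fit this did not pass (limma adjusted p = 0.562). In the fit of the 4 liver arrays alone it passed (-1.57 ± 0.14, limma adjusted p = 2.07e-05), 1 of the 205 probes lower there.

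The Apom call rested on which arrays set the error. Leaving out any 1 hypothalamus array gave a limma adjusted p of 0.0143 to 0.0222. The residual error then comes from the liver arrays, as in the liver fit, so these are not separate passes. Leaving out 1 liver array gave -1.60 or -1.54 and did not pass. Without the liver B6 2-choice pool the value was -1.60 (adjusted p = 1). Apom is on chromosome 17, the chromosome named in the congenic line, and its difference was the 21st lowest of 500 chromosome 17 genes tested in liver. Which probes lie in the congenic segment, and whether strain alleles differ under the probes, was not analysed here.

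Genes next to Apom on chromosome 17, in the order of RefSeq on GRCm38.p6, did not share 1 direction. Of the 10 nearest measured genes, 5 on each side, 7 were tested in liver. Of these, 2 were 1.5-fold or more lower in the mean and alike in sign in both pairs, against 13.3% of all probes. Ly6g5c, a Ly6 family gene, differed by -1.72 under chow and -1.41 under 2-choice, at a mean liver level of 9.27, just above the filter. Its congenic pools averaged below the filter level of 9.04. Its B6 pools carried it over the filter, so its place in that count is not support. Lta, the cytokine lymphotoxin alpha, differed by -1.13 and -0.17. Abhd16a, a lipase-family gene with a mean liver level of 16.18, differed by -0.02 and 0.17. Around Apod on chromosome 16, 8 of 10 neighbours were tested and their mean strain differences ran from -0.70 to 0.54, with Ppp1r2 at 0.16 and -0.15 and Bdh1 at -0.18 and 0.13 on either side of it.

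**Figure D2:**
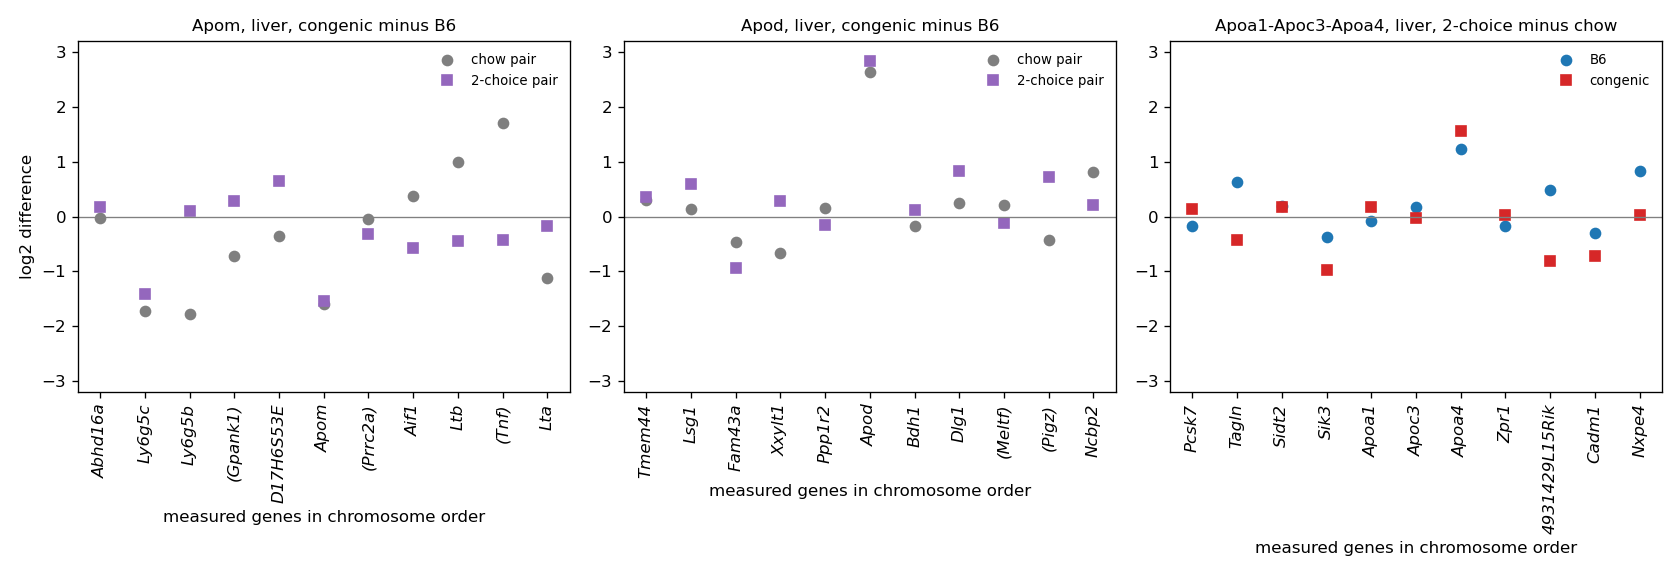
Log2 differences in liver (vertical axis) of measured genes in chromosome order around Apom and Apod (congenic minus B6, chow pair in grey and 2-choice pair in purple) and around Apoa1, Apoc3 and Apoa4 (2-choice minus chow, B6 in blue and congenic in red). Names in brackets were not tested in liver. Apom is low in both pairs, as is Ly6g5c, which only its B6 pools carried over the filter. Apod stands alone above its neighbours, and Apoa4 stands above Apoa1 and Apoc3.

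The HDL proteins Apoa1 and Apoa2, the lipase inhibitor Apoc3 and Apoa4 had strain differences under 1.5-fold in liver. Apoa1 read 19.76, 19.77, 19.68 and 19.95 in B6 chow, congenic chow, B6 2-choice and congenic 2-choice, a difference of 0.14 ± 0.46. Apoa2 read 21.56, 21.46, 20.89 and 20.85 in that order, a difference of -0.07 ± 0.26. Apoc3 read 19.95, 20.28, 20.11 and 20.25, a difference of 0.23 ± 0.26. The strains were at similar levels within each diet for these 3, and none passed by limma. Apoa4 differed by -0.03 under chow and 0.31 under 2-choice, a mean of 0.14 ± 0.23. Apoe held rank 1 on both liver chow arrays and rank 3 on both liver 2-choice arrays. Because both strains share 1 set of sorted values, the same rank gave the same intensity, and a strain difference too small to change the rank could not show.

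**Figure D3:**
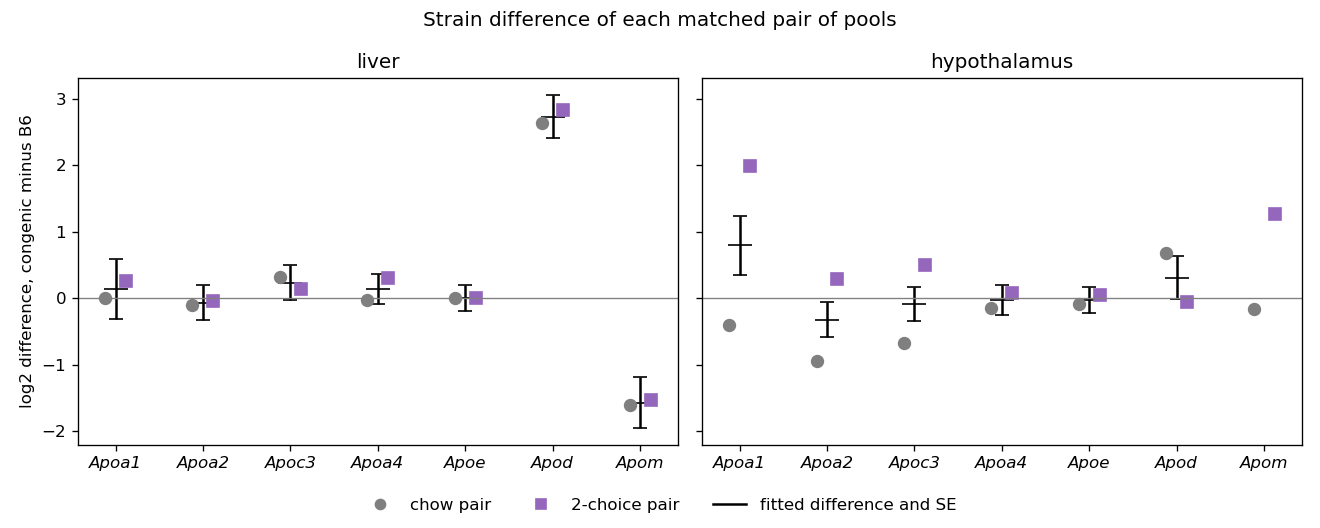
Congenic minus B6 log2 difference (vertical axis) of each gene in liver and in hypothalamus, with the chow pair in grey circles, the 2-choice pair in purple squares, and the fitted difference with its SE in black. Both liver pairs agree closely for Apod (2.63 and 2.83) and Apom (-1.60 and -1.54), while the hypothalamus pairs of Apoa1 (-0.40 and 2.00) lie apart. Apom has no fitted value in hypothalamus, where it was not tested.

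No listed gene of lipoprotein biology passed in the liver strain comparison. By the criterion of a mean of 1.5-fold or more, alike in sign, 1 of 13 other apolipoproteins was lower, Apobr, a receptor for Apob-containing particles (-0.59 and -1.65), and none was higher. Of 12 genes of assembly and lipid transfer, 2 were higher, Tm6sf2 (0.40 and 1.15) and Abcg5 (0.26 and 0.91), and 1 was lower, the cholesterol exporter Abcg1 (-0.82 and -0.99). Of 9 genes of sphingosine 1-phosphate, whose carrier is Apom, 1 was lower, the receptor S1pr2 (-0.82 and -1.24), with a mean of -1.03 ± 0.55 and a limma adjusted p of 0.816. The transcription factor Nr2f1 was at -0.38 and -2.32 and the iron-binding lipocalin Lcn2 at 0.02 and 1.23. By the same criterion 1 of 10 receptors was lower, and none of 5 lipase genes was in either direction.

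In hypothalamus no member differed between the strains in the same direction by 1.5-fold. By limma 0% of 19807 probes passed, with a lowest adjusted p of 0.203 and 983 at an unadjusted p under 0.05, and 20.3% of probes were 1.5-fold or more apart and alike in sign under both diets, 10.2% higher and 10.1% lower, against 0 of 6 members tested. In the fit of the 4 hypothalamus arrays alone 0.106% of probes passed, 0.0303% higher and 0.0757% lower, and no member. The members' median was -0.03 against -0.002 over all probes. Apod read 14.31 in B6 chow, 14.99 in congenic chow, 15.67 in B6 2-choice and 15.61 in congenic 2-choice. The congenic pool was the higher under chow by 0.68 and differed by -0.06 under 2-choice, for a mean of 0.31 ± 0.33 (limma adjusted p = 0.874). Apoe read 19.83, 19.73, 20.66 and 20.70 in that order, and its strain differences were -0.09 and 0.05.

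The strain difference of Apod was 2.73 in liver, with B6 under the filter level, and 0.31 in hypothalamus, and the difference between the tissues, 2.42 ± 0.47, did not pass by limma (adjusted p = 0.796). No probe of 15466 passed in that interaction, 0%, with 836 at an unadjusted p under 0.05. Averaged over both tissues with 4 matched pairs as blocks, Apod was at 1.52 ± 0.48 (limma adjusted p = 0.863), where 0% of 15466 probes passed. Without the hypothalamus chow pair it was 1.80 ± 0.52 (adjusted p = 0.687), and 0.0582% of probes passed.

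The strain pairs of the plasma apolipoproteins disagreed in sign in hypothalamus, and the Apoa1 signal was near the filter level. Apoa1 read 9.24 in B6 chow, 8.84 in congenic chow, 9.13 in B6 2-choice and 11.12 in congenic 2-choice. Only the congenic 2-choice pool stood clear of the filter level. Its strain difference was -0.40 under chow and 2.00 under 2-choice, with a mean of 0.80 ± 0.45 (limma adjusted p = 0.823). Without either chow array the value was 2.00, from the 2-choice pair alone. The probe was tested in hypothalamus because the congenic 2-choice pool is high, so no p of Apoa1 there counts as support. In that same congenic 2-choice pool Alb read 11.42 against 8.75 to 9.35 in the other 3 hypothalamus pools, Saa4, a liver-made apolipoprotein of HDL, read 11.86 against 8.41 to 9.27, and Apom read 9.83 against 8.56 to 9.14. These 3 genes were chosen after their values were seen. Of the 12 hepatocyte markers, 3 were highest in that pool (Alb, Tdo2 and Cyp2e1), 3 in B6 chow, 2 in congenic chow and 4 in B6 2-choice. In the congenic 2-choice pool Ahsg read 9.47 against 10.81 in congenic chow, and Apcs 8.69 against 10.22 in B6 chow. The list summed to 15.36, 15.67, 16.20 and 16.16 in the 4 pools, with 5 of 12 markers over the filter, and most of that sum came from Trf, at 15.06 to 16.05. Its part in the result was not tested.

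The strain pairs of Apoa2, Apoc3 and Apoa4 were also opposite in sign. Apoa2 read 11.85, 10.91, 10.62 and 10.92 in B6 chow, congenic chow, B6 2-choice and congenic 2-choice, and the B6 chow pool was the highest. Its differences were -0.94 and 0.29, and without either 2-choice array the value was -0.94, from the chow pair alone. Apoc3 read 10.76, 10.08, 9.87 and 10.38, again with B6 chow the highest, and differed by -0.68 and 0.51. Apoa4 was flat, at 11.97, 11.82, 11.69 and 11.77. No listed gene passed in this comparison. The largest values were Saa4 (0.38 and 3.45), Obp1a (1.55 and 1.25) and S1pr4 (2.63 and 0.15) above zero, and Lrp6 (-1.49 and -0.94), Pon2 (-1.46 and -0.81) and Apool (-1.86 and -0.29) below it.

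The diet comparison in liver set the pools after 24 h of 2-choice feeding against the chow pools, both of which are chow by title and 2-choice by description. Apoa4 was 2.63-fold higher on the 2-choice diet, with both strains alike, and Apoa2 was lower in both strains by 0.66 and 0.61. In the 8-array limma fit 0% of 19807 probes passed, with a lowest adjusted p of 0.125 and 1731 at an unadjusted p under 0.05. A difference of 1.5-fold or more, alike in sign in both strains, was seen for 24.6% of probes, 12.5% higher and 12.1% lower, and for 2 of 7 members, 1 each way. The members' median was 0.05 against -0.01 over all probes tested.

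Apoa4, the apolipoprotein associated with fat transport, read 14.16 in B6 chow, 14.13 in congenic chow, 15.39 in B6 2-choice and 15.70 in congenic 2-choice. Both chow pools agreed closely and both 2-choice pools were above them. The difference was 1.23 in B6 and 1.57 in congenic mice, with a mean of 1.40 ± 0.23, and ranked 25 by p. It did not pass in the 8-array fit (limma adjusted p = 0.175) and passed in the fit of the 4 liver arrays alone (1.40 ± 0.15, limma adjusted p = 8.56e-05), where 3.23% of probes passed, 1.72% higher and 1.51% lower. Leaving out any 1 hypothalamus array gave a limma adjusted p of 0.00751 to 0.00893. The residual error then comes from the liver arrays, as in the liver fit, so these are not separate passes. Leaving out 1 liver array gave 1.23 or 1.57 and did not pass. As deposited, with log2 only, the difference was 1.34.

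Apoa4 lies in 1 cluster with Apoa1 and Apoc3 on chromosome 9, and its diet difference was not shared by them. Apoa1 differed by -0.08 in B6 and 0.18 in congenic mice, a mean of 0.05 ± 0.46. Apoc3 differed by 0.17 and -0.02, a mean of 0.07 ± 0.26. Zpr1, the next gene past Apoa4, differed by -0.18 and 0.03, and Sik3, a kinase gene on the other side of Apoa1, by -0.37 and -0.97. A test of Apoa4 against its neighbours was not made.

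Apoa2, the second protein of HDL, had both 2-choice pools (20.89 and 20.85) below both chow pools (21.56 and 21.46). The mean difference was -0.64 ± 0.26, with an adjusted p of 0.556 in the 8-array limma fit and 0.209 in the liver fit. Its nearest measured neighbours upstream on chromosome 1 were Nr1i3, a nuclear receptor gene, with a mean of -0.63, and Sdhc, a mitochondrial gene, with a mean of 0.09. Beyond them lie Fc receptor genes of immune cells, with means of -1.57 for Fcgr2b, -1.55 for Fcgr4 and -1.05 for Fcgr3. On the other side of Apoa2 the means were -0.10 for B4galt3, 0.25 for Ppox, -0.89 for Usp21 and -0.001 for Ufc1, and Adamts4 was not tested. The microglia and macrophage list, measured in liver as macrophage markers, summed to 17.36 and 17.51 in the chow pools and 16.43 and 16.18 in the 2-choice pools, with 6 of 8 markers lower in both strains and a median of -1.19. The endothelial list had a median of -0.65, while the hepatocyte list had a median of -0.05. Their part in the result was not tested. The median over all probes tested was -0.01. The marker count uses sign alone, and the share of all probes alike in sign was not counted, so it describes the list only.

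The lipocalins gave smaller diet differences in liver. Apom was lower on 2-choice by 0.60 in B6 and by 0.54 in congenic mice, a mean of -0.57 ± 0.38, with an adjusted p of 0.723 in the 8-array limma fit and 0.0305 in the liver fit. Its strain difference was in the same direction under both diets, and the lowest of the 4 liver pools was congenic 2-choice. Apod was at 0.40 and 0.60 (mean 0.50 ± 0.33, limma adjusted p = 0.703), with the B6 pair below the filter level. Apoe was at -0.25 ± 0.20 in both strains. The strains held the same Apoe rank under each diet, so these equal values follow from the shared sorted intensities and are not separate agreement. The cluster partners of Apoe on chromosome 7 were Apoc2 at 0.61 and 0.43, Apoc4 at 0.71 and 0.21 and Apoc1 at 0.03 and -0.29.

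No listed gene passed in the liver diet comparison. By the criterion of a mean of 1.5-fold or more, alike in sign, 1 of 10 lipoprotein receptors was higher, Lrp5 (0.74 and 1.99), and 2 were lower, Vldlr (mean -0.78) and Mylip (mean -0.84), which encodes a ligase that degrades LDL receptors. Of 20 transcription factors, 1 was higher and 2 were lower. Of 13 other apolipoproteins, Apobr was higher (1.35 and 0.29) and 1 was lower. The cholesterol hydroxylase Cyp46a1 was at 1.30 and 1.09 (mean 1.19 ± 0.21, limma adjusted p = 0.191), and passed in the fit of the liver arrays alone (limma adjusted p = 0.0333). It also passed without any 1 hypothalamus array (limma adjusted p = 0.00903 to 0.0107). There the residual error comes from the liver arrays alone, so these are not separate passes. Among the rest, the lipase modulator Angptl6 was at -1.05 and -0.82 and the sphingosine kinase Sphk1 at -0.63 and -1.99, and no gene of assembly and lipid transfer and none of the lipocalins met that criterion.

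**Figure D4:**
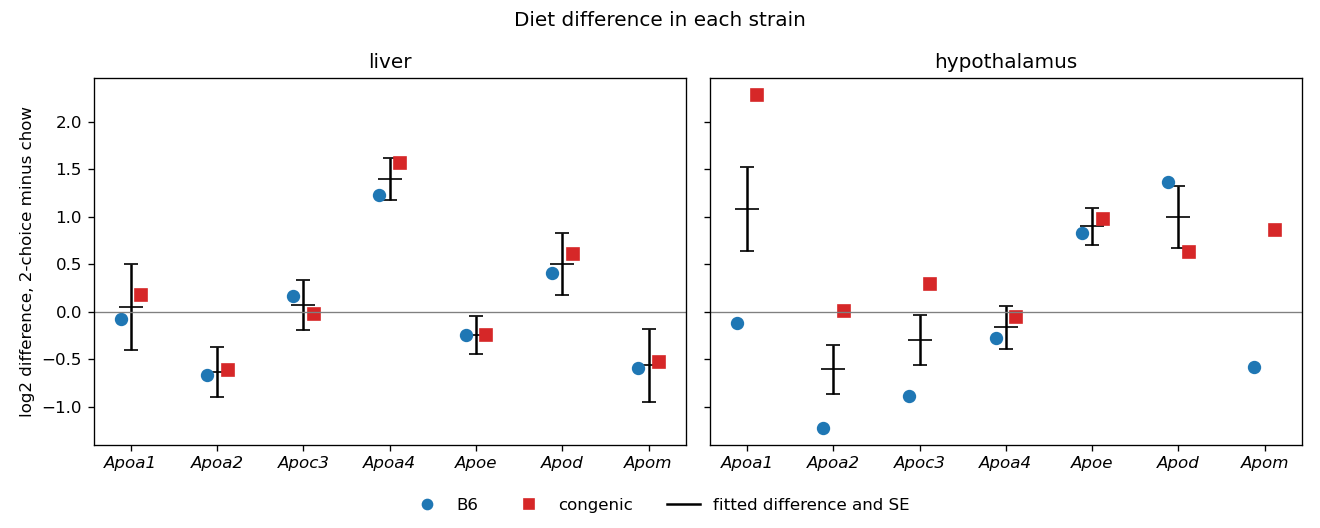
2-choice minus chow log2 difference (vertical axis) of each gene in liver and in hypothalamus, with B6 in blue circles, congenic in red squares, and the fitted difference with its SE in black. In liver Apoa4 stands at 1.23 and 1.57 and Apoa2 at -0.66 and -0.61. In hypothalamus Apoe (0.83 and 0.97) and Apod (1.36 and 0.63) lie above zero in both strains, and Apom has no fitted value because it was not tested.

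In hypothalamus the brain lipid carriers Apod and Apoe had higher values on 2-choice than on chow in both strains, and neither passed in the 8-array limma fit. In that fit 0.49% of 19807 probes passed, 70 higher and 27 lower, and none of the 6 members tested. A difference of 1.5-fold or more, alike in sign in both strains, was seen for 38.4% of probes, 21.8% higher and 16.6% lower, and for 2 of the 6 members, both higher. The members' median was 0.37 against 0.07 over all probes. This comparison crosses the sets of arrays whose deposited medians were 560 and 1338, and its count of calls and the size of its differences moved with the scaling.

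Apod differed by 1.36 in B6 and 0.63 in congenic mice, since the B6 chow pool (14.31) was the lowest of the 4. The mean was 0.99 ± 0.33, with an adjusted p of 0.147 in the 8-array limma fit and 0.00181 in the fit of the hypothalamus arrays alone, where 3.8% of probes passed, 2.31% higher and 1.49% lower. With arrays centred on the median it was 1.86 (limma adjusted p = 0.00338) and as deposited 3.12 (limma adjusted p = 2.89e-05). Apoe differed by 0.83 and 0.97, with both 2-choice pools (20.66 and 20.70) above both chow pools (19.83 and 19.73). The mean was 0.90 ± 0.20 (limma adjusted p = 0.0778), and it passed as deposited (1.95), with arrays centred on the median (0.69, adjusted p = 0.0209) and with no filter on dim probes (adjusted p = 0.0147). It did not pass in the fit of the hypothalamus arrays alone (0.90 ± 0.47, limma adjusted p = 0.303) or with quantile normalization over all 8 arrays (0.66, adjusted p = 0.116). The smaller SE of the 8-array fit, 0.20, also draws on the liver arrays, where the shared ranks of Apoe left no residual.

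Markers of cell types and of a neighbouring gland differed in the same arrays. The oligodendrocyte list summed to 16.96 and 17.26 in the chow pools and 18.11 and 17.76 in the 2-choice pools, with 4 of 6 markers higher in both strains and a median of 0.77. The fibroblast and meninges list had 5 of 8 higher, 1 lower and a median of 0.72, and the astrocyte list 2 of 6 higher, 1 lower and a median of 0.25. The endothelial list had 4 of 8 higher, 2 lower and a median of 0.65. The hypothalamic neuron list had 4 of 10 higher, 5 lower and a median of -0.09. In the microglia and macrophage list 0 of 8 were higher and 5 lower, with a median of -0.26. The pituitary list summed to 12.09 and 11.70 on chow and 15.27 and 13.93 on 2-choice, with 3 of 5 higher, 1 lower and a median of 3.13. Its growth hormone gene Gh read 8.28 and 8.74 on chow and 14.31 and 12.24 on 2-choice. The lower gene, Lhb, read 10.21 and 10.40 on chow and 9.78 and 9.96 on 2-choice. Their part in the Apod and Apoe differences was not tested. The median over all probes tested was 0.07. These marker counts use sign alone, and the share of all probes alike in sign was not counted, so they describe the lists only.

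The plasma apolipoproteins did not share a direction in hypothalamus. Apoa1 was at -0.12 in B6 and 2.28 in congenic mice (mean 1.08 ± 0.45, limma adjusted p = 0.214). Without either B6 array the value was 2.28, from the pool already named for its Alb level. That pool also carried Apoa1 over the filter, so no p of Apoa1 in hypothalamus counts as support. Apoa2 was at -1.23 and 0.01, with a mean of -0.61 ± 0.26 (limma adjusted p = 0.226), and without either congenic array it was -1.23. Apoc3 was at -0.89 and 0.29, a mean of -0.30 ± 0.26, and without either congenic array -0.89. With 1 hypothalamus array left out, that tissue adds no residual error, so such values compare single pools and carry no p here. Apoa4 was at -0.28 and -0.05, a mean of -0.16 ± 0.23. As deposited, the mean of Apoa2 was 1.41, of Apoc3 1.33 and of Apoa4 2.06, so the direction of these 3 turned with the scaling.

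Of the lists, 1 receptor gene passed in hypothalamus. Scarb1, the HDL receptor that takes up cholesterol esters, was higher by 2.03 in B6 and 2.05 in congenic mice, a mean of 2.04 ± 0.25 (limma adjusted p = 0.016), and it was 1 of 9 receptors tested. The call ended in the fit of the hypothalamus arrays alone (adjusted p = 0.127), with variance without a trend (adjusted p = 0.177) and without any 1 of the 4 liver arrays (adjusted p = 0.0592 to 0.0626), the difference itself being 2.04 in each. The cholesterol exporter Abca1, which loads lipid onto Apoa1 and Apoe, was at 1.87 and 2.19, a mean of 2.03 ± 0.47 (limma adjusted p = 0.083). With arrays centred on the median it was 1.99 (limma adjusted p = 0.00704), and as deposited 3.24 (limma adjusted p = 9.97e-05). Its mean hypothalamus level was 9.69, and its chow pools averaged below the filter level of 9.26. The 2-choice pools carried the probe over the filter, so no p of Abca1 here counts as support. Saa2, an acute-phase apolipoprotein, was at 1.76 and 1.73. Below zero were Lrp5 (-1.84 and -1.84), Foxa2 (-0.88 and -2.35), Nr5a2 (-0.85 and -2.21) and Cidec (-2.03 and -0.44), none of which passed.

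The diet difference of Apoa4 was larger in liver than in hypothalamus by 1.56 ± 0.31, and that of Apoe was smaller in liver by 1.15 ± 0.34. Neither passed in the interaction (limma adjusted p = 0.151 and 0.207), where 0.0647% of 15466 probes did. For Apoe the liver arrays added no residual error, since both strains held the same ranks. Leaving out 1 array gave Apoa4 values from 1.39 to 1.73. As deposited, the Apoa4 interaction was -0.72, the opposite direction.

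How the members varied together was read over the 8 arrays after the mean of each tissue was subtracted, as a description over 8 points that share tissue, scaling set and pools. Apod and Apom ran opposite (Pearson r = -0.795), Apoa2 and Apoc3 together (r = 0.632) and Apoa1 with Apoe (r = 0.607), and the others lay between -0.447 and 0.352. The opposite liver strain differences of Apod and Apom, given above, enter their value. Signal near or below the filter level also enters, from Apod in B6 liver and from Apom and Apoa1 in hypothalamus. Among 8188 genes tested in both tissues, the most like Apod were Mmd2 (r = 0.986), Fxr2 (r = 0.977) and B3galt4 (r = 0.976). The most like Apoa4 were Plppr4 (r = 0.983), Zbtb49 (r = 0.982) and Ubxn2b (r = 0.979). For Apoa1 they were Man2a1 (r = 0.943), Saa4 (r = 0.931) and Rpl35a (r = 0.921), for Apoa2 Rcor2 (r = 0.988), Cyp4b1 (r = 0.986) and Dhrs3 (r = 0.980), and for Apoe Cavin2 (r = 0.997), Yes1 (r = 0.995) and R3hdm4 (r = 0.995). For Apoc3 they were 4930578I06Rik (r = 0.965), Zfand2a (r = 0.963) and Mterf4 (r = 0.957). With 8 points and 8188 genes, values of this height are picked from the top of a long list.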

How the data were processed

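Expression was measured on 8 single-channel chemiluminescent arrays, 1 for each pool. Per the labels, 1 microgram of total RNA was transcribed into digoxigenin-labelled cRNA. The deposited values are linear probe intensity, and how the authors corrected background and scaled the arrays is not given in the sources used here. No column lacked a sample. Detection flags were not used here.

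From the deposited intensity, log2 values were quantile normalized within tissue (over all 8 arrays for the tissue comparison). Models were run in R 4.3.3 with limma 3.58.1 (lmFit, then eBayes with trend), with Benjamini-Hochberg adjustment over all probes tested and a threshold of 0.05. The strain and diet fit took all arrays, with a tissue term and separate strain and diet terms in each tissue (2 residual degrees of freedom), and the tissue and both-tissue fits had 4 blocks (3 residual degrees of freedom). No pool was repeated, so the error is made of interactions, p-values reflect the spread of these pools alone, and strain by diet has no test. The number of arrays limits the precision. The scripts were tested on simulated data. Groups came from the titles.

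The members and lists were chosen with earlier results of these data known. Genes named beside the members were, per comparison, up to 4 higher and 4 lower list genes of the largest mean change at least 1.5-fold apart with the same sign in both pairs (called genes for tissue), the 3 genes most like each member, and the nearest measured neighbours. Symbols came from the platform annotation, and chromosome and gene order from RefSeq on GRCm38.p6, matched for 13832 of 13840 genes. Alternatives were other scalings, filters and variance models, each tissue alone, and leaving out each array or pair.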

Additional observations from a re-analysis of the deposited data

Results flagged for a closer look

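For 12 values both liver pairs lay on one side of zero and both hypothalamus pairs on the other, and the difference between the tissues was fitted as an interaction. The values searched were strain and diet differences of the members and of the list genes named for those comparisons. Such list genes had been named for equal signs in both pairs of a tissue. The share of all probes with opposite signs was not counted, so the 12 describe this selection only. None passed by limma, and values are liver minus hypothalamus on the log2 scale. Among the members, the diet difference of Apoa4 was 1.56 (adjusted p = 0.151), from 1.23 and 1.57 in liver against -0.28 and -0.05 in hypothalamus. The diet difference of Apoe was -1.15 (adjusted p = 0.207), from -0.25 in both liver pairs against 0.83 and 0.97 in hypothalamus. Its liver pairs are equal because both strains held the same ranks.

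In the diet comparison the other genes were the receptor Lrp5 at 3.2 (adjusted p = 0.176), Nr5a2, a nuclear receptor of lipid genes, at 1.89 (adjusted p = 0.312), Cyp46a1 at 1.54 (adjusted p = 0.134), Apool at -1.18 (adjusted p = 0.341) and the paraoxonase Pon2 at -1.75 (adjusted p = 0.267). In the strain comparison they were Lrp6 at 1.43, Apool at 1.37, Nr2f1 at -1.6 and Abcg1 at -1.36, each with an adjusted p of 0.796, and Mylip at -0.45 (adjusted p = 0.824). The hypothalamus strain values of these 5 include the chow pair whose congenic description names C57BL/6J.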

How the results depend on the processing

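Of 548 alternative values for the members, 470 kept their direction and their side of the limma threshold, 40 passed where the reported value did not, 38 changed sign and 0 lost a call. The 40 include Apod in liver and Apoa1 in hypothalamus, which high pools carried over the filter. They also include Apoa2 and Apoc3 with 1 hypothalamus array left out. None of these counts as support. For Apoa4 and Apom in liver, the passes without 1 hypothalamus array share the error of the liver fit. Of 187 for the list genes with a printed test, 174 kept both, 7 passed newly (Abca1 and Cyp46a1, with the limits given above), and 6 lost the call (Scarb1). Counts of probes called stayed within 1.5-fold of the reported count in 54 of 114 alternatives. No paired analysis was possible because each group is 1 pool and the labels carry no replicate numbers to pair by, and the blocks in the tissue and both-tissue fits are matched conditions.

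The 4 arrays of a tissue alone gave 252 probes for strain in liver, 21 for strain in hypothalamus, 639 for diet in liver and 753 for diet in hypothalamus. As deposited, the counts were 1 for strain in hypothalamus, 15430 for diet in hypothalamus (15377 higher and 53 lower), 10781 for diet by tissue (15 and 10766) and 5579 for tissue. Centred on the median they were 1, 7633 (7167 higher and 466 lower) and 3901 (84 and 3817), and for tissue 5287 higher and 3801 lower. For diet in hypothalamus, quantile normalization over all 8 arrays gave 202, the filter at the 60th percentile 43 and variance without a trend 0. For diet by tissue these gave 0, 2 and 0, against 10 reported (1 higher and 9 lower). Leaving out 1 array gave 10 to 78 for strain in liver, 0 to 1376 for strain in hypothalamus, 9 to 258 for diet in liver, 25 to 1714 for diet in hypothalamus, 3 to 810 for strain by tissue, 4 to 1292 for diet by tissue and 8332 to 9130 for tissue, and leaving out 1 pair 0 to 9 for strain over both tissues. A pair left with 1 pool is assumed to vary like the others.

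Sign changes among the members were as follows, and the cause was not tested. For strain in hypothalamus, Apoc3 was 0.11 as deposited and when centred. For diet in liver, Apoa1 was -0.13 and Apoc3 -0.10 under both of these. For diet in hypothalamus, Apoa2 was 1.41 and 0.15, Apoa4 2.06 and 0.81, and Apoc3 1.33 and 0.0699. For diet by tissue, Apoa4 was -0.72 as deposited, and for tissue Apoe was -0.0361 without both hypothalamus chow arrays. Leaving out 1 array gave, for strain in liver, Apoa4 from -0.0324 to 0.31. For strain in hypothalamus it gave Apoa1 from -0.40 to 2.00, Apoa2 from -0.94 to 0.29, Apoa4 from -0.14 to 0.0802, Apoc3 from -0.68 to 0.51, Apod from -0.0584 to 0.68 and Apoe from -0.093 to 0.0498. For diet it gave Apoa1 from -0.0784 to 0.18 and Apoc3 from -0.0233 to 0.17 in liver, and Apoa1 from -0.12 to 2.28, Apoa2 from -1.23 to 0.0068 and Apoc3 from -0.89 to 0.29 in hypothalamus. Other probes of a member were not tried, since each has 1. Signal near the filter level limits Apod in B6 liver and Apoa1 and Apom in hypothalamus.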
